A study of Mus musculus with 16 samples.

Results

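The major urinary proteins (Mup) are encoded in the mouse by a cluster of closely related genes on chromosome 4. The 10 genes described here, Mup3, Mup6, Mup9, Mup10, Mup11, Mup13, Mup14, Mup17, Mup20 and Mup21, are 10 of the 30463 genes in the authors' deposited table of liver RNA sequencing, and were taken from it by gene symbol. They were chosen on the basis of measured values, namely the mean normalized counts and fold changes of the comparison reported below, so those values are given as a description and no test is made on them. The table lists 22 numbered Mup genes and 18 Mup pseudogenes in all.

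The libraries came from liver of wild-type C57BL/6N mice aged 14 weeks, 16 animals by the labels, in 4 groups of 4. These were DEN-injected mice on the high fat diet, vehicle-injected mice on the high fat diet, DEN-injected mice on control diet and vehicle-injected mice on control diet. DEN is diethylnitrosamine, a DNA-alkylating liver carcinogen. It or vehicle was injected at 2 weeks of age, and part of each arm was moved at 6 weeks to a diet labelled 60% high fat, which was kept up to collection. All groups share strain, genotype, tissue and age, and the sources used here do not give sex. The value columns of the table carry library codes that match no sample label, so levels per animal and per group were not analysed here. The table also holds 1 comparison made by its authors, without naming its sides. A positive log2 fold change therefore means higher on the comparison's positive side, and the sources used here do not say which mice stand on either side.

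Major urinary proteins are small barrel-shaped carriers of the lipocalin family. Hepatocytes secrete them into blood, the kidney filters them into urine, and there they bind and slowly release volatile pheromones and act as scent signals themselves. In mouse liver their transcription is known to be higher in males, to need the pulsatile male pattern of growth hormone acting through STAT5, and to respond also to androgen, thyroid hormone and glucocorticoid. Lower hepatic Mup expression has been described in obese and diabetic mice. RNA of these genes is among the more abundant messages of mouse liver.

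The coding sequences are shown first, because how alike the genes are decides what a read can be assigned to. Below is the middle 75-base stretch of the Mup17 coding sequence with the matching stretch of 5 other members, from GENCODE release M21 on GRCm38. Each is written 5′ to 3′ on the coding strand, positions are counted from the first base of the start codon, and capitals mark bases unlike Mup17. The stretch was chosen after the sequences had been seen.
Mup17, coding bases 233 to 307, minus strand: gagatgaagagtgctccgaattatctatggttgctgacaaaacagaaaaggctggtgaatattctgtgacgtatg
Mup11, coding bases 236 to 310, minus strand: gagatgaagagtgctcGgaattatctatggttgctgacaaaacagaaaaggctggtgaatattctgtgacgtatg
Mup6, coding bases 230 to 304, plus strand: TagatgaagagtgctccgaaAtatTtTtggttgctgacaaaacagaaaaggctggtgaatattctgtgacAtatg
Mup20, coding bases 236 to 310, minus strand: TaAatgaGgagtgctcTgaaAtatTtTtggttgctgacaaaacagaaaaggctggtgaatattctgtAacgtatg
Mup3, coding bases 245 to 319, minus strand: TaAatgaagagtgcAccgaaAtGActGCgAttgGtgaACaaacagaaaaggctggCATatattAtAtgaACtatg
Mup21, coding bases 236 to 310, minus strand: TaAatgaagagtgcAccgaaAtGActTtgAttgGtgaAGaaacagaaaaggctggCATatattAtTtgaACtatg
Mup11 differed from Mup17 at 1 of these 75 bases, Mup6 at 5, Mup20 at 8, Mup21 at 18 and Mup3 at 19. Over the aligned coding bases, which leave out the part of a longer annotated coding sequence that has no partner, Mup9, Mup10, Mup11, Mup13, Mup14 and Mup17 were between 98.52% and 99.81% identical to each other in all 15 pairs. These 6 are called the near-identical members below, a class set up after the sequences and values had been seen. Against the other 4 members they were 84.26% to 91.48% identical (24 pairs). Mup3 and Mup21 formed a pair of their own at 96.32%, and Mup6 and Mup20 were 90.69% identical. Mup9 and Mup18, a numbered Mup gene outside the 10, were identical over all 540 aligned bases, with 705 coding bases annotated for Mup9 and 543 for Mup18.

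**Figure D1:**
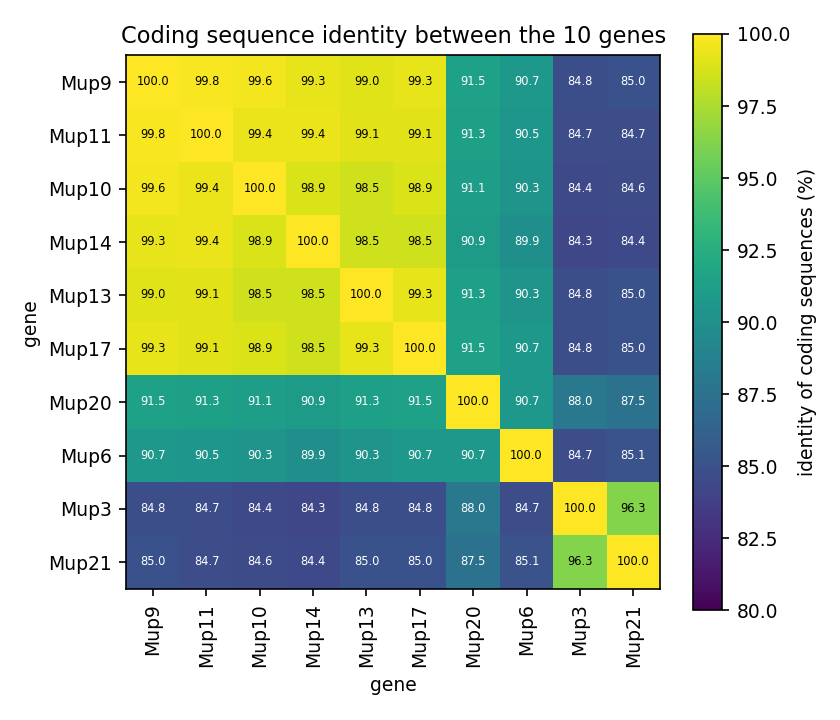
Percent identity of the coding sequences for each pair of members, grouped by sequence class, with colour running with identity. The 6 near-identical members form a block at 98.52% or more, while Mup3 and Mup21 pair with each other at 96.32%.

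The 250 bases before the RefSeq gene start are shown for 5 members, because the start regions of genes of 1 cluster can be read side by side. Sequences are from RefSeq on GRCm38.p6, 5′ to 3′ on the strand of the gene, and a window was found for 8 of the 10 members (Mup13 and Mup20 had no entry). Capitals mark a pair of short sequences on either strand. ATCAAT is the core of the sequence bound by HNF6 (Onecut1). TATATAA resembles a TATA box.
Mup9, chr4:60421953-60422202, minus strand: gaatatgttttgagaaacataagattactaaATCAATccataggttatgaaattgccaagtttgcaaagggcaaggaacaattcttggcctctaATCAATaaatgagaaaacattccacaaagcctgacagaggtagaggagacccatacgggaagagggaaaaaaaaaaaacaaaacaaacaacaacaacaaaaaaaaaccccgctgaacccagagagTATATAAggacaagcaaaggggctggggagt
Mup17, chr4:61595833-61596082, minus strand: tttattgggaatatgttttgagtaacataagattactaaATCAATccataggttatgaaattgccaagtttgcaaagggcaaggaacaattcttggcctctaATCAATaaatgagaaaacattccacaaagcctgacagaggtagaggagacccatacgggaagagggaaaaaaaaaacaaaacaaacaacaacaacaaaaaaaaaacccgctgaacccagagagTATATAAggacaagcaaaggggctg
Mup6, chr4:60003231-60003480, plus strand: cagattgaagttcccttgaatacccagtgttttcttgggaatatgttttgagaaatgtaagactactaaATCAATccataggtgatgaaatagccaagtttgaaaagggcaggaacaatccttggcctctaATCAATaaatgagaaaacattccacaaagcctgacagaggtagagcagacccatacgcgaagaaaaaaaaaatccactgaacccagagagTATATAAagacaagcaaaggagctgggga
Mup3, chr4:62087318-62087567, minus strand: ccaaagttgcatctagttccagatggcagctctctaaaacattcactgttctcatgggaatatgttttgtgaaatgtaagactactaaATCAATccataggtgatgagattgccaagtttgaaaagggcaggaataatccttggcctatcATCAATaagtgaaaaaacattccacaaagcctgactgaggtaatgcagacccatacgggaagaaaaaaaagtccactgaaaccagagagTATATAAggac
Mup21, chr4:62150842-62151091, minus strand: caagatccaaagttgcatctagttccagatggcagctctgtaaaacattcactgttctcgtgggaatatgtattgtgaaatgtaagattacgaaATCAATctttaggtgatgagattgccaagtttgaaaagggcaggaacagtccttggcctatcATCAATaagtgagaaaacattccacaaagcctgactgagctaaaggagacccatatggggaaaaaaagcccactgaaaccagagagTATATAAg
Each of the 8 windows held 2 copies of ATCAAT. At least 1 copy occurred in 6.72% of 32851 RefSeq windows of that length. The 8 windows are related in sequence, so they are not 8 separate observations. The copies began 63 bases apart in Mup9, Mup10, Mup11, Mup14 and Mup17 and 62 bases apart in Mup3, Mup6 and Mup21. Windows of Mup genes outside the 10 also held 2 copies. These began 63 bases apart in Mup2, Mup7, Mup15, Mup18 and Mup19 and 62 bases apart in Mup4. TATATAA stood in 6 of 8 windows, all but those of Mup11 and Mup14, against 3.04% of all windows, and this motif was chosen after the sequences had been seen. TTCNNNGAA, the palindrome bound by STAT5, was in 0 of 8 windows and 7.02% of all windows. CCAAT was in 3 of 8 (Mup11, Mup14 and Mup17) and 33.8%, the C/EBP-like TTGCNNNA in 0 of 8 and 29.3%, and TGTTCT, part of the glucocorticoid and androgen receptor element, in 2 of 8 (Mup3 and Mup21) and 16.1%. Both strands were searched for each motif. A match is a description of the letters, and an absent motif speaks only of this window. Windows of near-identical members were 92.93% to 99.56% identical to each other (10 pairs), and those of Mup3 and Mup21 were 78.42% to 89.12% identical to them (10 pairs) and 93.44% to each other. The windows are placed from each gene's own annotated start, so they are shifted against one another. Of the 8 windows only that of Mup9 lies wholly outside its GENCODE gene. The RefSeq starts of Mup3, Mup6, Mup10, Mup11, Mup14, Mup17 and Mup21 lie inside theirs, that of Mup6 far inside. In Mup3, Mup6, Mup10, Mup17 and Mup21 the TATATAA also falls inside the GENCODE gene.

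The genes lie on GRCm38 chromosome 4 between 59956804 and 62150863, a stretch of 2194060 bases that holds 39 Mup genes of the table, 22 of them numbered and 17 pseudogenes. Mup6 (ENSMUSG00000078689) is at chr4:59964294-60007274 and is the only member on the plus strand. On the minus strand follow Mup9 (ENSMUSG00000078686) at chr4:60418046-60421952, Mup10 (ENSMUSG00000078680) at chr4:60578260-60582199 and Mup11 (ENSMUSG00000073834) at chr4:60658466-60662411. Next along come Mup13 (ENSMUSG00000089873) at chr4:61224307-61228286, Mup14 (ENSMUSG00000073830) at chr4:61300023-61304000 and Mup17 (ENSMUSG00000096688) at chr4:61591929-61595871. Mup20 (ENSMUSG00000078672) is at chr4:62050234-62054158, Mup3 (ENSMUSG00000066154) at chr4:62083476-62087342 and Mup21 (ENSMUSG00000066153) at chr4:62147932-62150863, at the far end. The near-identical members thus occupy the middle of the cluster, with Mup6 on one flank and Mup20, Mup3 and Mup21 on the other.

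In level, Mup3 led the 10 genes by a wide margin. Its mean normalized count in the authors' deposited table was 103651, the 30th highest of all genes and 0.508% of the summed mean counts. Together the 10 genes had 208347 in the authors' deposited table, which is 1.02% of that sum, and Mup3 alone made up 49.7% of the members' total. The near-identical members made up 36.9%, Mup6 with Mup20 11.1%, and Mup21 2.31%. On the scale per kilobase of annotated exon, Mup3 stood at 97051 mean normalized counts, Mup13 at 29235, Mup17 at 26246 and Mup20 at 17963, computed from the authors' deposited table. Below them on the same scale were Mup11 at 8335, Mup21 at 7122, Mup6 at 6426, Mup14 at 3491, Mup10 at 3451 and Mup9 at 615. The exon length joins all annotated transcripts of a gene. For Mup9, Mup10, Mup11 and Mup14 it was 1499, 1391, 1576 and 1382 bases, against 909, 927, 930 and 925 in the longest protein-coding transcript. Per kilobase of that transcript their levels would be higher. For Mup13, Mup17, Mup20 and Mup21 both lengths were equal. All these levels are means with no spread given, so neighbours in the order above are not shown to differ. Which libraries entered the means is not stated in the sources used here. For the near-identical members a level also depends on how reads shared by several genes were counted, and the sources used here do not say how.

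In the authors' comparison, 7 of the 10 members were called, which means that the authors' deposited table lists them with an adjusted p under 0.05, and all 7 were higher on the positive side. Of all 16288 genes with an adjusted p, 6.57% were called, 3.67% as higher and 2.90% as lower on the positive side. Because the genes were chosen with this comparison known, nothing is read from their count against that background. No member was called as lower on the positive side. At an unadjusted p below 0.05 in the authors' deposited table, 8 members were higher and 0 lower. Of all 16288 tested genes, 1570 were higher and 1532 lower at that threshold. The members' median log2 fold change was 1.16 in the authors' deposited table, where the median of all tested genes was -0.0044. Computed from the authors' deposited table, a mean weighted by count was 0.58, and the median of the members with at least 50% unique windows, defined below, was 0.44. All 10 passed the authors' limit on low counts. In whole liver, fewer cells of a type and less RNA per cell cannot be told apart. The called member nearest the threshold was Mup10, with an adjusted p of 0.0286 in the authors' deposited table, and the nearest uncalled member was Mup6, at 0.1004.

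**Figure D2:**
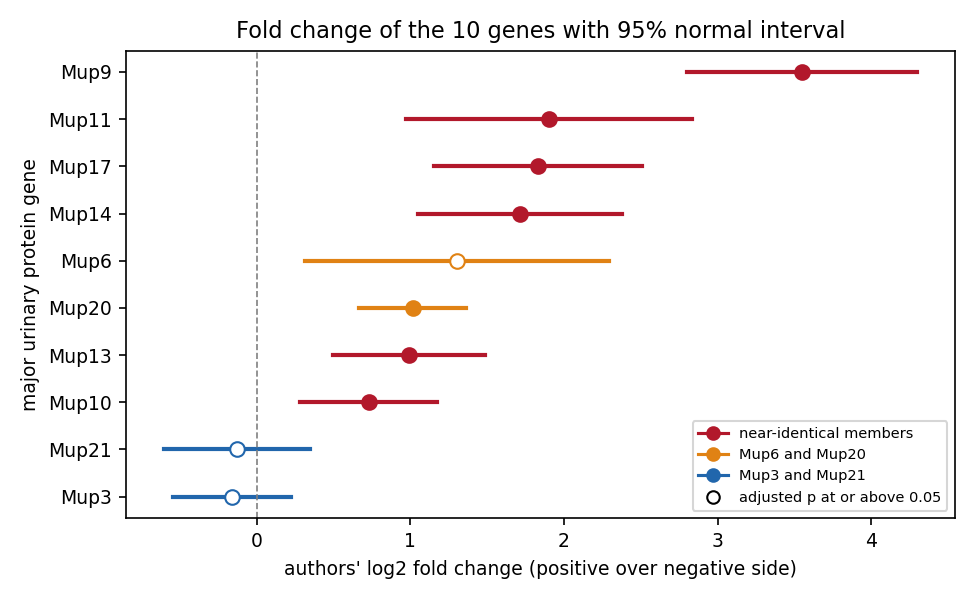
The authors' log2 fold change (positive side over negative side) of each of the 10 members, with 95% normal intervals from the authors' standard error, coloured by coding-sequence class, with open points for uncalled genes. Mup9 is highest at 3.55 and the intervals of Mup3 and Mup21 span 0.

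The near-identical members, which lie in the middle of the cluster, were called in 6 of 6 cases in the authors' deposited table. They were chosen with this comparison known, so nothing is read from that count. Their log2 fold changes lay between 0.73 and 3.55, with a median of 1.77, in the authors' deposited table. With the authors' statistic divided by its median absolute deviation over all genes, 3 of the 6 were called, and Mup10, Mup11 and Mup13 were not (adjusted p = 0.542, 0.266 and 0.285). Mup10 was also not called when p-values were adjusted over every gene that has one (adjusted p = 0.0530). Other numbered Mup genes of the cluster were as alike in coding sequence and were not called in the authors' deposited table. Mup1, Mup2 and Mup12 were 99.63%, 99.81% and 99.63% identical to Mup11 (adjusted p = 0.216, 0.816 and 0.399). Mup16 was 99.63% identical to Mup9, and Mup7 99.07% to Mup14 (adjusted p = 0.202 and 0.557). Mup8 and Mup18, also this alike, were called. Mup9 had the widest change of the 10, with a log2 fold change of 3.55 ± 0.38 (SE; 95% interval 2.80 to 4.30, 11.7-fold) and an adjusted p of 3.7e-17 in the authors' deposited table. That was the 7th highest fold change of all tested genes in the authors' deposited table, at a mean normalized count of 921.7, the lowest of the 10 members. Among these 10 genes Mup9 thus had both the widest fold change and the lowest mean normalized count.

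For Mup11 the authors' deposited table gave 13135 mean normalized counts and a log2 fold change of 1.90 ± 0.47 (SE; adjusted p = 0.00303). Mup17 had 24330 and 1.83 ± 0.35 (adjusted p = 1.67e-05) in the authors' deposited table. Mup14, with 4825 mean normalized counts, had 1.71 ± 0.34 (adjusted p = 4.56e-05) in the authors' deposited table. The 95% intervals of these 3 genes, 0.97 to 2.83, 1.15 to 2.51 and 1.05 to 2.38 in the authors' deposited table, overlap one another. Mup13, the most abundant of the class at 28767 mean normalized counts, had 0.99 ± 0.25 (adjusted p = 0.00382) in the authors' deposited table. Mup10 had the narrowest change of the class, 0.73 ± 0.23 at 4800.1 mean normalized counts (adjusted p = 0.0286), in the authors' deposited table. The intervals of Mup9 and Mup10 in the authors' deposited table, 2.80 to 4.30 and 0.28 to 1.18, do not overlap, although the aligned coding bases of the class are at least 98.52% identical. Whether they differ cannot be tested from the table, because the same reads can enter both estimates.

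Mup20, whose product darcin is the male scent protein that draws females, had 16669 mean normalized counts and a log2 fold change of 1.02 ± 0.18 (SE; 95% interval 0.67 to 1.36, 2.02-fold, adjusted p = 1.95e-06) in the authors' deposited table. This standard error was the smallest among the 10 members. Mup6, on the opposite strand at the other flank, had 6426 mean normalized counts and 1.30 ± 0.50 in the authors' deposited table. Its point estimate is above that of Mup20, its interval of 0.31 to 2.29 is far wider, and its adjusted p of 0.1004 (unadjusted p = 0.00981) in the authors' deposited table missed the threshold.

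Mup3 and Mup21, the 2 members most unlike the others in sequence, had fold changes near 1. Mup3 had a log2 fold change of -0.16 ± 0.20 (SE; 95% interval -0.54 to 0.22, adjusted p = 0.728) in the authors' deposited table. Mup21, with 4822 mean normalized counts, had -0.13 ± 0.24 (95% interval -0.60 to 0.35, adjusted p = 0.843) in the authors' deposited table. Both intervals lie wholly below the interval of Mup9, 2.80 to 4.30, in the authors' deposited table. They also lie below those of Mup11, Mup13, Mup14, Mup17 and Mup20. The members were chosen on these fold changes and the estimates share libraries, so this is a description and the differences were not tested. The member with the most RNA, Mup3, was among the 3 that were not called.

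The fold changes of the members were less precise than those of other abundant genes. Their standard errors ran between 0.18 and 0.50, with a median of 0.29, in the authors' deposited table. The 2469 tested genes whose mean normalized count reached 1000 had a median standard error of 0.12 in the authors' deposited table. Of those genes, 79.7% had a smaller standard error than Mup20 and 98.99% a smaller one than Mup6. In that abundant class 137 genes, 5.55%, were called as higher on the positive side in the authors' deposited table.

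The share of each member's transcript that no other annotated gene carries was measured as the percent of its 75-base windows found in no other GENCODE gene on either strand. Mup6 had 100% unique windows, Mup3 93.2%, Mup21 89.7% and Mup20 56.4%. Mup20 shared the rest with 1 gene, the pseudogene Mup-ps19. The near-identical members had 31.3% (Mup17), 14.2% (Mup10 and Mup11), 12.4% (Mup13), 10.7% (Mup9) and 5.41% (Mup14), and each shared windows with 18 other genes. Mup3 and Mup21 shared windows only with each other. Most of the sequence of a near-identical member is therefore present in another annotated gene, and the part of read assignment in its values was not tested.

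Across the 10 members the share of unique windows and the log2 fold change of the authors' deposited table had a Spearman rho of -0.47 and a Pearson r of -0.61. Over the 19 numbered Mup genes with an adjusted p these were -0.28 and -0.44, computed from the authors' deposited table. The points share libraries and reads and the members were chosen on their fold changes, so these are descriptions without a p. Mup6 and Mup20, with 100% and 56.4% unique windows, had fold changes of 1.30 and 1.02 in the authors' deposited table, and Mup6 was not called.

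**Figure D3:**
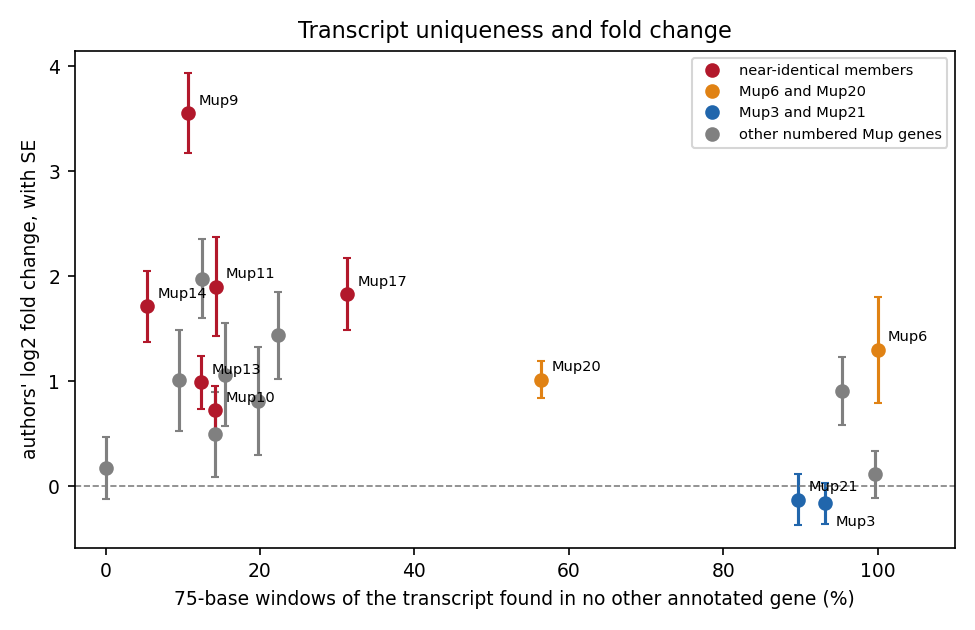
Percent of 75-base transcript windows unique to a gene (x axis) against the authors' log2 fold change (y axis) for the numbered Mup genes with an adjusted p; bars are the authors' standard error and grey points are genes outside the 10. The near-identical members lie at 31.3% or less, Mup6 at 100% and Mup3 and Mup21 near 90%.

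Of the 12 numbered Mup genes outside the 10, 9 had an adjusted p and 2 were called, both as higher on the positive side, in the authors' deposited table. The share called as higher over all tested genes was 3.67%. For Mup18, which equals Mup9 over their aligned coding bases, the authors' deposited table gave 277.5 mean normalized counts and a log2 fold change of 1.98 ± 0.37 (SE; adjusted p = 1.74e-05). Mup8 had 9.53 mean normalized counts and 1.44 ± 0.41 (adjusted p = 0.0143) in the authors' deposited table. Mup7 had as many as 19699 mean normalized counts and 0.50 ± 0.41 (adjusted p = 0.557) in the authors' deposited table. Mup4 and Mup5, of which 99.7% and 95.4% of windows were unique, had 0.12 ± 0.22 (adjusted p = 0.844) and 0.91 ± 0.32 (adjusted p = 0.0665) in the authors' deposited table. Mup2, Mup15, Mup19 and Mup22 had no unique 75-base window. Mup2 had 40.9 mean normalized counts and 0.18 ± 0.30 (adjusted p = 0.816) in the authors' deposited table. Mup15, Mup19 and Mup22 were lower, and their mean normalized counts of 1.11, 0.131 and 0.0883 in the authors' deposited table were below its limit for an adjusted p. A low count of such a gene does not show that its RNA is absent, since each of its windows also belongs to another gene.

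Among all 22 numbered Mup genes, 19 were tested. In the authors' deposited table, 9 of these were called as higher and 0 as lower on the positive side. Of these 9, 7 are members chosen with this comparison known, so nothing is read from the family count. Over all tested genes, 3.67% were called as higher. At an unadjusted p below 0.05, 13 numbered Mup genes were higher and 0 lower, and 8 of those 13 are members. Mup pseudogenes were listed with high values too. Of the 12 with an adjusted p, 7 were called as higher and 0 as lower on the positive side in the authors' deposited table. Mup-ps18 had 35015 mean normalized counts and 0.68 ± 0.32 (adjusted p = 0.211) in the authors' deposited table, with 98.03% of its windows unique. Mup-ps22, which lies on chromosome 11 outside the cluster and had 100% unique windows, had 13216 and 1.09 ± 0.24 (adjusted p = 0.00061) in the authors' deposited table.

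**Figure D4:**
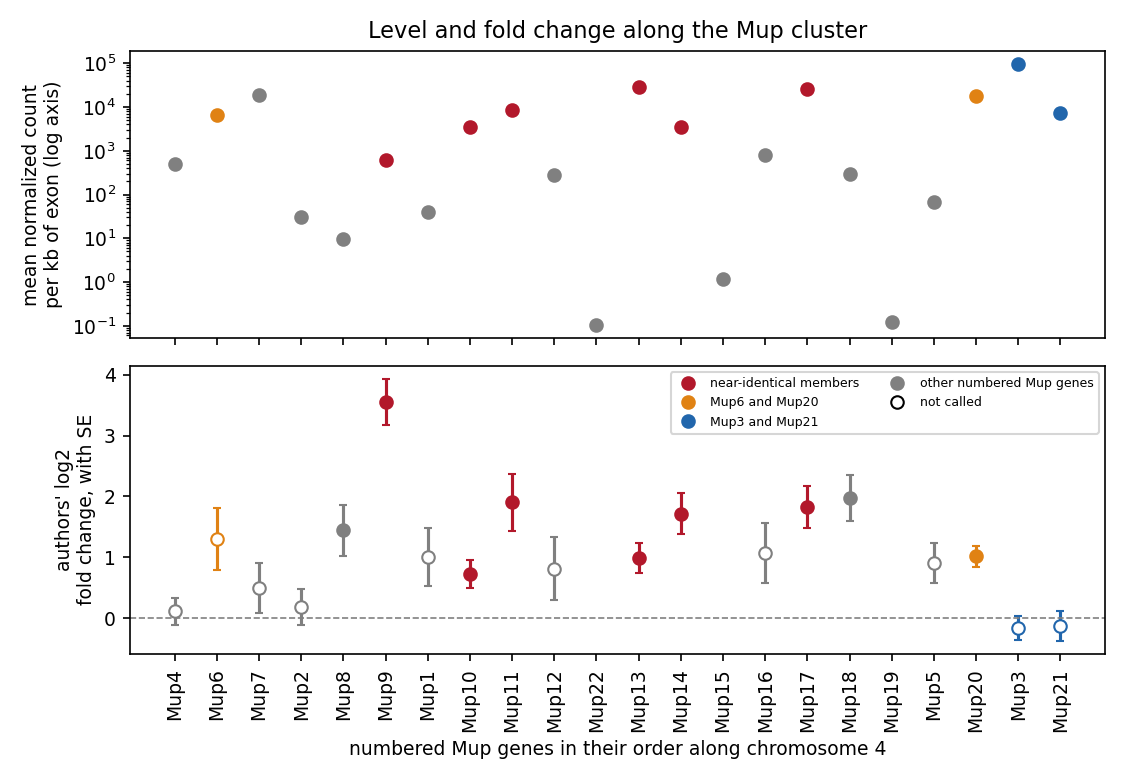
Level as mean normalized count per kilobase of exon on a log axis (top) and the authors' log2 fold change with bars of the authors' standard error (bottom; open points were not called) for the numbered Mup genes in their order along the chromosome. Mup3 and Mup21 stand at the far end, with fold changes of -0.16 and -0.13.

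Genes beside and within the cluster that are no Mup genes were called in 2 of 12 tested cases within 300 kb. The share called over all 16288 tested genes was 6.57%. Gm13775, a processed transcript inside the cluster on the plus strand that spans Mup-ps16, had a log2 fold change of 0.87 (adjusted p = 6.8e-05) in the authors' deposited table. Fkbp15, outside it, had -0.37 (adjusted p = 2.7e-05) in the authors' deposited table. The copper transporter gene Slc31a1 had 0.03 (adjusted p = 0.925) and the zinc finger gene Zfp37 -0.35 (adjusted p = 0.614) in the authors' deposited table.

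Other genes that are known to differ between male and female mouse liver were read as a pathway context, from lists drawn up with earlier results of these data known. Over all 16288 tested genes, 3.67% were called as higher and 2.90% as lower on the positive side. At an unadjusted p below 0.05, 1570 of them were higher and 1532 lower. Of 25 tested male-biased genes, 6 were called as higher and 0 as lower on the positive side. At an unadjusted p below 0.05 in the authors' deposited table, 7 male-biased genes were higher and 0 lower. Their median log2 fold change was 0.12 in the authors' deposited table. They included Fitm1 at 2.46 ± 0.26 (SE) and the fatty acid hydroxylase gene Cyp4a12a at 1.55 ± 0.21 in the authors' deposited table. The steroid hydroxylase gene Cyp2d9 had 0.51 ± 0.15 (adjusted p = 0.014) in the authors' deposited table. Other well-known male-biased genes were not called, and for the steroid dehydrogenase gene Hsd3b5 the authors' deposited table gave 0.39 (adjusted p = 0.877). For the organic anion transporter gene Slco1a1 the authors' deposited table gave 0.01 (adjusted p = 0.993).

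Of 20 tested female-biased genes, 8 were called as lower and 0 as higher on the positive side in the authors' deposited table. Over all tested genes, 2.90% were called as lower. At an unadjusted p below 0.05, 1532 of all 16288 tested genes were lower. Of the female-biased genes 10 were lower and 1 higher at that threshold. Their median log2 fold change was -0.79 in the authors' deposited table. Cux2, a female-biased repressor of male genes, had -4.64 ± 0.78 (SE) in the authors' deposited table. The P450 genes Cyp2c69 and Cyp2c40 had -4.25 ± 0.58 and -3.89 ± 0.43 in the authors' deposited table. Cyp2b9, also female-biased, had 1.15 (adjusted p = 0.488) in the authors' deposited table.

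**Figure D5:**
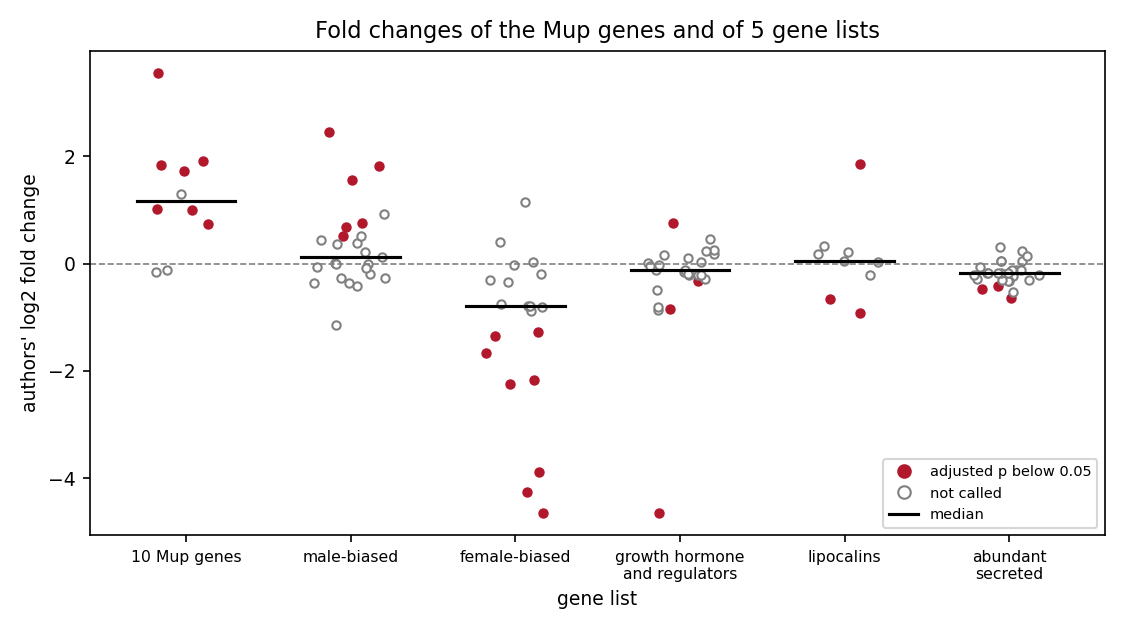
The authors' log2 fold change (positive side over negative side) of each tested gene in the Mup members and the 5 lists, with 1 point per gene, filled where called, and the median as a line. The medians are 1.16 for the members, 0.12 for male-biased and -0.79 for female-biased genes.

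Among 25 regulators of Mup transcription and growth hormone signalling, 1 was called as higher and 3 as lower on the positive side, with a median of -0.12, in the authors' deposited table. The shares over all tested genes were 3.67% called as higher and 2.90% as lower. For the growth hormone receptor gene Ghr the authors' deposited table gave a log2 fold change of 0.17 ± 0.12 (SE; adjusted p = 0.484). Stat5b, the main STAT5 gene of male-pattern expression, had 0.10 ± 0.14 (adjusted p = 0.768), and its paralog Stat5a was called at 0.76 ± 0.15, in the authors' deposited table. For Igf1, the growth hormone target that circulates as a growth factor, the authors' deposited table gave -0.33 ± 0.10 (adjusted p = 0.015), and for the estrogen receptor gene Esr1 -0.84 ± 0.21 (adjusted p = 0.00394). Cux2, already given, also stands in this list. Onecut1, which encodes HNF6, had -0.12 ± 0.55 (adjusted p = 0.940), an interval too wide to place it, in the authors' deposited table. Rsl1 is known to repress Mup genes in female liver. Zhx2 and Rsl1 had -0.03 ± 0.13 (adjusted p = 0.935) and 0.23 ± 0.17 (adjusted p = 0.516) in the authors' deposited table.

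Among 9 tested genes of other lipocalins, 1 was called as higher and 2 as lower on the positive side, with a median log2 fold change of 0.04, in the authors' deposited table. The shares over all tested genes were 3.67% called as higher and 2.90% as lower. For Obp2a, an odorant-binding lipocalin gene, the authors' deposited table gave 1.85 ± 0.47 (SE; adjusted p = 0.00394). Apom, the lipoprotein-bound carrier of sphingosine phosphate, had -0.66 ± 0.16 (adjusted p = 0.00226), and the acute phase gene Orm2 -0.93 ± 0.29 (adjusted p = 0.0258), in the authors' deposited table. The retinol carrier gene Rbp4 had 0.04 ± 0.17 in the authors' deposited table. Of 28 genes of abundant secreted liver proteins, 0 were called as higher and 3 as lower on the positive side, with a median of -0.18, in the authors' deposited table. At an unadjusted p below 0.05 these were 2 higher and 5 lower, against 1570 higher and 1532 lower of all 16288 tested genes. Albumin (Alb) had -0.29 ± 0.21 (adjusted p = 0.484) in the authors' deposited table.

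The labelled tissue was checked on marker genes. The 8 hepatocyte markers had mean normalized counts between 34531 and 1079860 in the authors' deposited table, and 3 (Pck1, Cps1 and Ass1) were called as lower on the positive side. The share called as lower over all tested genes was 2.90%. Of the 5 adipocyte markers listed, the defining ones Adipoq, Plin1 and Retn had 0.387, 0.439 and 0.558 mean normalized counts in the authors' deposited table. The marker Cfd, which encodes adipsin, had 395 mean normalized counts and was called at 7.93 ± 0.69 (adjusted p = 2.6e-26), by the authors' deposited table. Fabp4 had 435 mean normalized counts and 0.73 ± 0.31 (adjusted p = 0.151), by the authors' deposited table. Of the genes that mark other Mup-expressing glands, only Amy1 was listed in the authors' deposited table. It had 4148.9 mean normalized counts and -0.06 ± 0.14 (adjusted p = 0.866). These markers therefore do not settle whether such tissue was present. Median log2 fold changes were -0.62 for 6 Kupffer cell markers, of which Timd4 was called as lower on the positive side, -0.41 for 5 sinusoidal, -0.14 for 5 stellate and 0.43 for 5 cholangiocyte markers, none of the last 3 lists with a call, in the authors' deposited table. The part of these cell types in the Mup values was not tested.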

How the data were processed

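RNA was extracted from frozen liver and made into stranded mRNA libraries, per the labels' protocols. FastQC, Trimmomatic, HISAT2, HTSeq 0.11.1 and build GRCm38 are listed, without roles, order or settings for multi-mapping reads and strand, per the submitters' processing notes. Per the file headers, the deposited table holds the authors' mean normalized count (a signal), log2 fold change and its standard error, test statistic (a score), p-value and adjusted p-value. The sources used here give neither the model nor what was compared. Checked on the values, the statistic is the fold change over its standard error, the p-value is its 2-sided normal p, and the adjusted p is the Benjamini-Hochberg value over 16288 genes, whose mean normalized count is at least 2.949.

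The 16 per-library columns match no label and were used in no step, so the planned edgeR comparisons between groups were not run, depth per sample is not given and precision is the authors' standard error. Calls are at an adjusted p below 0.05, and intervals are 95% normal intervals. The table gives 1 Entrez number to 4 Mup genes, so genes were matched by symbol and Ensembl identifier.

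Each gene was represented by its longest protein-coding transcript, or its longest transcript of any kind for pseudogenes. Windows of 50, 75 and 100 bases of that transcript were compared with all GENCODE M21 transcripts, not with the genome. Coding sequences of these transcripts were aligned globally with Biopython 1.88. Counts and adjustments used pandas 2.3.3, numpy 2.4.6 and scipy 1.17.1 in Python 3.11.15. The adjustment was tested on simulated data. Named were the members, other numbered Mup genes, and called or described genes of the lists; Mup pseudogenes and neighbours were added. The members and lists were chosen with earlier results of these data known.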

Additional observations from a re-analysis of the deposited data

How the results depend on the processing

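No paired analysis was possible because the library codes match no sample label. For the same reason the planned group comparisons (edgeR, with a replicate block as an alternative) were not run. Of the 10 members, 7 were called, and 4 (Mup9, Mup14, Mup17 and Mup20) when the authors' statistic was divided by its median absolute deviation of 1.438. That setting left 5 numbered Mup genes, 142 of all genes, 2 male-biased, 3 female-biased, 2 regulator, 0 lipocalin and 0 secreted protein genes. At an adjusted p below 0.01 there were 6 members, 491 of all genes, 2 male-biased, 5 female-biased and 1 secreted protein gene. A change of at least 2-fold left 5 members, 272 of all genes, 3 male-biased, 1 regulator, 1 lipocalin and 0 secreted protein genes. Adjustment over every gene with a p left 6 members and 3 male-biased genes, with Mup10 at 0.0530. A mean normalized count of at least 100 left 7 members and 4 female-biased genes. No member was called as lower on the positive side under these 5 settings. The members' median log2 fold change of 1.16 was 0.87 as an inverse-variance mean. Added after seeing the data, a count-weighted mean gave 0.58, and members with at least 50% unique windows had a median of 0.44.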
